A study of Mus musculus with 223 samples.

Results

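The transcripts of the forkhead factors Foxp1, Foxp2 and Foxp4 were followed in single Htr3a-GFP+ interneurons (INs) of the mouse cortex. These are 3 of the 43629 genes counted in each cell. They were chosen by measured values, namely their pooled level, the share of cells above 10 RPM (read pairs of a gene scaled to the mapped pairs of its cell) and the level without the highest cell in each group, so those values are given as a description and no test is made of them. The cells came from transgenic mice of both sexes on a C57BL/6 background that express eGFP under the regulatory sequences of Htr3a, the gene of a serotonin receptor subunit, and all groups share this transgene. At embryonic day 18 (E18) there were 82 cells, which the authors left as 1 group. At postnatal day 2 (P2) the authors assigned 22 cells to type 1, 31 to type 2 and 13 to type 3. At postnatal day 5 (P5) these types held 34, 19 and 22 cells. The authors drew the types from these same counts, so a gene that differs between types may have helped to define them. Cortices of the animals of each age were pooled before sorting by GFP, so each age is 1 sample, cells are not replicates, and the differences below have no replicate check. GFP marks cells in which the transgene is active, and the chip held cells of 5 to 10 µm.

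Foxp proteins are transcription factors that bind DNA through a forkhead domain, pair with one another through a leucine zipper and mostly repress their targets. They recruit corepressors such as CtBP and the NuRD complex. Foxp1 and Foxp2 are known in the brain from projection neurons of the striatum and of the cortex, and the fourth member of the family, Foxp3, is known from regulatory T cells.

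The members are similar in sequence, so it was checked how far a read can tell them apart. In the GENCODE vM21 annotation of GRCm38, Foxp1 (ENSMUSG00000030067) lies at chr6:98925338-99522721 on the minus strand, Foxp2 (ENSMUSG00000029563) at chr6:14901349-15441977 on the plus strand and Foxp4 (ENSMUSG00000023991) at chr17:47867133-47924645 on the minus strand. The longest run that is the same in any annotated transcript of both genes is 35 bases for Foxp1 and Foxp2, 21 for Foxp1 and Foxp4 and 20 for Foxp2 and Foxp4. No stretch of 50 bases, the length of 1 read, is shared by any pair of them.

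The cells were sequenced to similar depth, with 3707601 to 15840130 mapped read pairs per cell, except that type 3 INs were shallower, with a median of 6483871 at P2 and 7879973 at P5 against 8931263 to 9640275 for all cells of an age. Read pairs counted on genes were also fewer in type 3, with medians of 2802948 at P2 and 2620272 at P5. In types 1 and 2 the medians were 4974305 and 5042112 at P2 and 5328259 and 5438465 at P5. RPM is the count of read pairs times the authors' coefficient, relative to all mapped pairs and not to those counted on genes. After the age, the cell labels hold a set number, whose meaning they do not give. It is 353 for all P2 cells and 383, 392 or 393 for the E18 and P5 cells, so P2 and its set cannot be told apart. No 2 cells had identical counts. At least 3 of 7 interneuron transcripts (Gad1, Gad2 and Dlx genes among them) were above 10 RPM in 72 of 82 cells at E18, in 20 of 22, 23 of 31 and 9 of 13 cells of types 1, 2 and 3 at P2, and in 33 of 34, 18 of 19 and 20 of 22 at P5. At least 3 genes of a list of excitatory neurons, astrocytes, oligodendrocytes or microglia were above 10 RPM in 17 cells, 12 at E18 and 5 in type 2 at P5. For the members and for the gene lists in type 1 at P5, shares, pooled levels or folds that these cells enter are also given without them, a setting chosen after the data were seen. Cells with transcripts of interneurons of the medial ganglionic eminence (MGE) were not left out. At least 3 of 6 MGE genes were above 10 RPM in 38 of 82 E18 cells. At P2 this held for 0 of 22, 7 of 31 and 1 of 13 cells of types 1, 2 and 3, and at P5 for 0 cells.

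Foxp2, the member best known for its part in vocal learning and motor circuits, was high in a subset of type 1 INs and low in the other types. Its pooled level at P2 was 235.5 RPM in type 1 (95% Poisson interval 233.5 to 237.5), 1.83 RPM in type 2 (1.68 to 1.99) and 1.69 RPM in type 3 (1.42 to 1.99). At P5 it was 109.7 RPM in type 1 (108.6 to 110.8), 2.23 RPM in type 2 (2.02 to 2.46) and 1.17 RPM in type 3 (1.02 to 1.35). The E18 cells together held 9.73 RPM (9.51 to 9.95). All intervals here cover counting error only, since the libraries carry no molecular identifiers and PCR copies are not separate molecules. In order of pooled level the groups were thus type 1 at P2, type 1 at P5, the E18 cells, and then the 4 groups of types 2 and 3.

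The level of type 1 INs came from few cells. At P2, 8 of 22 cells were above 10 RPM, at 10.5, 112.5, 114.4, 222.5, 363.0, 607.8, 1689 and 2242 RPM, and the other 14 cells lay at or below 2.41 RPM with a median of 0.209 RPM. At P5, 6 of 34 cells were above 10 RPM (17.6%, exact 95% binomial interval 6.76 to 34.5%), at 378.3, 435.8, 608.7, 767.8, 826.1 and 868.2 RPM, and the other 28 lay at or below 3.39 RPM. The cells of P5 thus fell into a high and a low set with no cell between 3.39 and 378.3 RPM. The highest cell held 41.9% of the Foxp2 read pairs of type 1 at P2 and 20.7% at P5. Without it the pooled level came to 143.1 RPM at P2 and to 89.3 RPM at P5.

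Outside type 1, single cells passed the threshold. Of the 31 type 2 cells at P2, 1 passed, at 30.8 RPM (3.23%, 0.0816 to 16.7%), and 1 of 19 at P5 did, at 36.2 RPM (5.26%, 0.133 to 26%). In type 3, 0 of 13 passed it at P2 and 0 of 22 at P5, which by a limit of 3 cells allows shares of up to 23.1% and 13.6%. Scaled to the total counts on genes, the shares in type 3 were 0% at P2 and 4.55% at P5. The highest type 3 cells lay at 7.67 RPM at P2 and 9.92 RPM at P5, the latter the cell nearest below the threshold in the whole series.

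**Figure D1:**
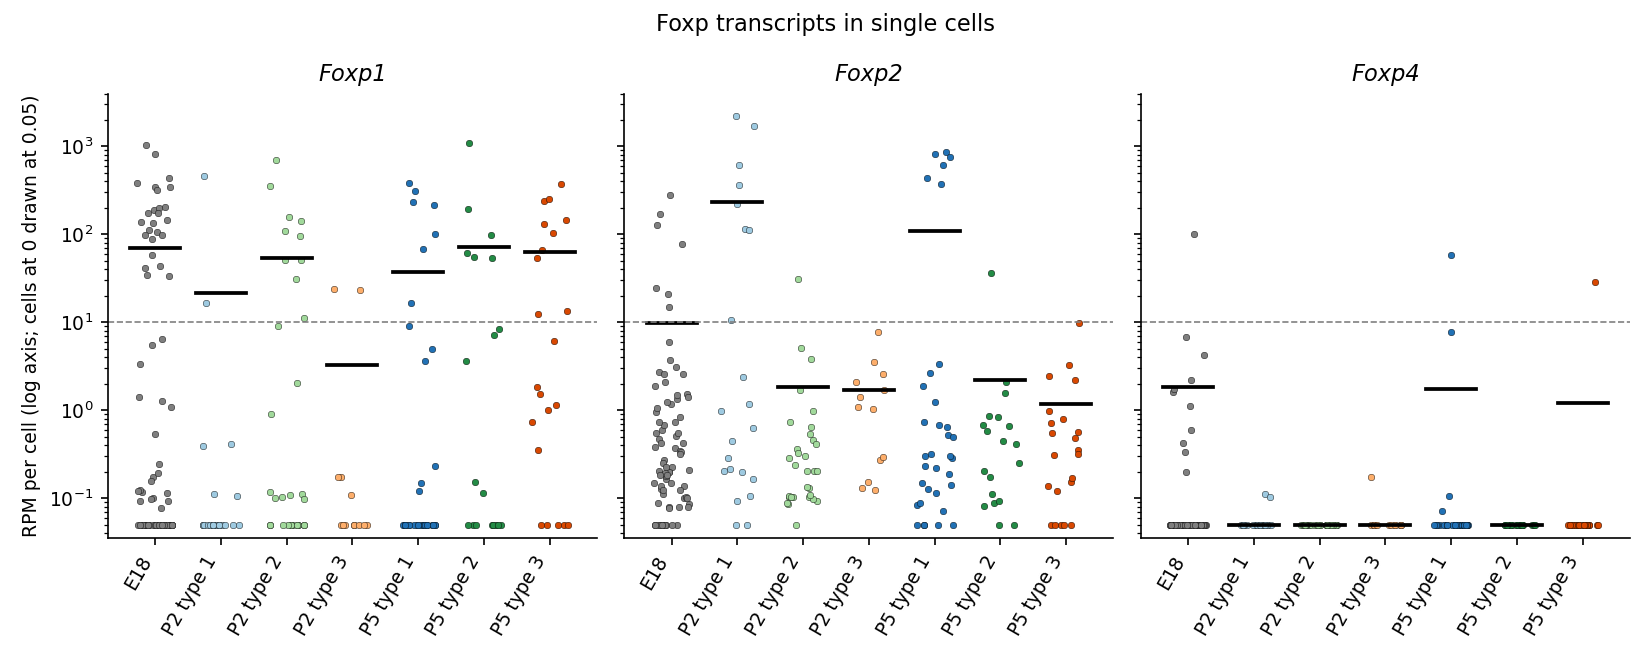
RPM of Foxp1, Foxp2 and Foxp4 in each cell (log axis, cells at 0 drawn at the lower edge) by age and type, with a horizontal bar at the pooled level of the group (at the lower edge where it is smaller) and a dashed line at 10 RPM. The 6 Foxp2-high type 1 cells at P5 sit between 378.3 and 868.2 RPM with an empty range down to 3.39 RPM, Foxp1-high cells appear in every group, and Foxp4 is above the line in 3 cells.

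Below the threshold, Foxp2 and Foxp1 differed. Of the cells at or below 10 RPM of Foxp2, 86% still held at least 1 Foxp2 read pair, with a median of 2 pairs and at most 78. Of the cells at or below 10 RPM of Foxp1, 33.5% held a Foxp1 read pair, with a median of 0. For Foxp4 the share was 7.27%. Trace reads of Foxp2 therefore occurred in most cells of every group, from 77.3% of type 3 INs at P5 to 13 of 13 at P2, and a threshold of 1 read pair did not separate type 1 (90.9% at P2) from type 2 (96.8%). At a threshold of 1 RPM the share in type 3 at P2 was 61.5%, above the 45.5% of type 1, and that at E18 was 26.8%. Whether these reads come from spliced Foxp2 transcripts was not tested. Pooled over the cells at or below 10 RPM, the trace amounted to 0.493 RPM in type 1 at P2, 0.632 RPM in type 2 at P2 and 1.69 RPM in type 3 at P2.

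The log2 fold of Foxp2 in type 1 INs against the other types of the same age, with 1 RPM added to both sides, was 6.40 at P2 and 5.35 at P5. Folds were counted over genes that passed a filter (above 10 RPM in over 5% of that age's cells), 8400 at P2 and 9675 at P5. Foxp2 passed it through type 1, which held 8 of its 9 cells above 10 RPM at P2 and 6 of 7 at P5. At P2, 51.3% of those genes were past 2-fold in either direction in this comparison, and 1 of the 2 members tested (Foxp2) was. At P5 the share was 47.3%, and again Foxp2 alone of the 2 was past it. Foxp1 lay close to the line, at -0.99 and -0.85, and was past it at P2 with 0.1 RPM added (-1.02) and from the mean log2 value per cell (-1.22), and at P5 per total counts (-1.06) and from the mean log2 value (-1.33), where both members count. The levels in these groups chose the members, so nothing is read from the counts. Leaving out the top type 1 cell gave Foxp2 folds of 5.69 and 5.05. Leaving out the 5 type 2 cells with transcripts of other cell types gave 5.27 at P5, and within label sets 383, 392 and 393 at P5 the folds were 5.84, 6.02 and 5.77. The pooled level of type 1 INs in these sets was 71.4, 77.5 and 174.7 RPM, with 1 of 11, 1 of 11 and 4 of 12 cells above 10 RPM.

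Type 1 INs had a lower pooled Foxp2 level at P5 than at P2, with a log2 fold of -1.10. In this comparison 55.5% of 9845 genes were past 2-fold, and of the members Foxp2 was and Foxp1 (0.78) was not. The fold of Foxp2 was -0.38 without its highest P2 cell, so 1 cell took it past 2-fold. That of Foxp1 was 4.25 without its highest P2 cell, so 1 cell kept it from being past 2-fold. The shares of cells above 10 RPM (36.4% and 17.6% for Foxp2) had overlapping intervals. Dissociation also differed, at 37 °C for E18 and P2 and at room temperature for P5, and its part was not tested.

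At E18, 7 of 82 cells were above 10 RPM of Foxp2 (8.54%), from 14.8 to 278.0 RPM with the middle cell at 77.3 RPM, and 75 lay at or below 6.00 RPM. The highest cell held 32.9% of the read pairs, and the pooled level without it was 6.60 RPM. In label sets 383, 392 and 393, 1 of 48, 2 of 9 and 4 of 25 E18 cells were above 10 RPM. The pooled levels in these sets were 5.08, 11.1 and 18.3 RPM. In the authors' t-SNE map, most of the 5 nearest postnatal neighbours were type 1 INs for 4 of the 7 cells (57.1%, 18.4 to 90.1%) and for 12 of the other 75 (16.0%, 8.55 to 26.3%). The map was made from these counts and Foxp2 is one of them. Without the cells that carry transcripts of other cell types, these counts were 2 of 3 and 11 of 67. Transcripts of excitatory neurons moved with Foxp2 at this age. At least 3 of 11 genes of that list (Tbr1, Neurod and Slc17a genes among them) were above 10 RPM in 4 of the 7 Foxp2-high cells and in 8 of the other 75, and the summed level of the list ranged from 0.159 to 1947 RPM (median 799.9) in the former and from 0 to 1861 RPM (median 1.07) in the latter. Without all such cells, 3 of 70 E18 cells were above 10 RPM of Foxp2 (4.29%, 0.893 to 12.0%) and the pooled level was 6.75 RPM, while Foxp4 was above 10 RPM in 1 of 70 at a pooled level of 2.01 RPM. The part of these transcripts in the result was not tested. None of the type 1 cells at P2 or P5 carried 3 genes of that list.

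Other factors of type 1 INs were counted in the Foxp2-high cells. Meis2, a homeodomain factor of the TALE class, was above 10 RPM in 7 of 8 Foxp2-high type 1 cells at P2 (87.5%, 47.3 to 99.7%) and in 6 of the other 14 (42.9%, 17.7 to 71.1%). At P5 it was above 10 RPM in 6 of 6 and in 27 of the other 28. Pbx3, which codes for a TALE partner of Meis proteins, was above 10 RPM in 5 of 8 Foxp2-high cells and 5 of the other 14 at P2, and in 6 of 6 (interval 54.1 to 100%) and 15 of the other 28 (53.6%, 33.9 to 72.5%) at P5. Its pooled level in the P5 Foxp2-high cells was 514.1 RPM. The same order held at E18, where Meis2 was above 10 RPM in 4 of 7 Foxp2-high cells (57.1%, 18.4 to 90.1%) and in 7 of the other 75 (9.33%, 3.84 to 18.3%), and Pbx3 in 3 of 7 (42.9%, 9.90 to 81.6%) and 3 of 75 (4.00%, 0.833 to 11.2%). At E18 the intervals of Meis2 did not overlap, by a narrow margin, and all the others did. Of those 4 E18 cells with Foxp2 and Meis2, 3 were among the cells with excitatory transcripts. Without the cells that carry transcripts of other cell types, Meis2 and Pbx3 were each above 10 RPM in 1 of 3 Foxp2-high cells and 3 of the other 67, with overlapping intervals.

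Sp9, a zinc finger factor of cells from the lateral ganglionic eminence (LGE), went the other way at P5, with 3 of 6 Foxp2-high type 1 cells and 26 of the other 28 above 10 RPM (92.9%, 76.5 to 99.1%). At P2 the counts were 5 of 8 and 6 of 14. Etv1, an ETS factor, was above 10 RPM in 2 of 6 and 19 of 28 cells at P5 and in 3 of 8 and 6 of 14 at P2. Sp8, the zinc finger paralogue of Sp9, was found in 5 of 6 and 27 of 28 cells at P5 and in 7 of 8 and 9 of 14 at P2. Erbb4, the neuregulin receptor, was above 10 RPM in 6 of 6 and 16 of 28 cells at P5 but in 4 of 8 and 11 of 14 at P2. Pax6 was at a lower share at both ages, in 2 of 6 and 12 of 28 at P5 and 1 of 8 and 6 of 14 at P2. For Tshz1 the counts were 5 of 6 and 26 of 28 at P5 and 4 of 8 and 6 of 14 at P2. Of the 4 factors of the caudal ganglionic eminence (CGE), Prox1 was above 10 RPM in 3 of 8 Foxp2-high type 1 cells and 1 of the other 14 at P2 and in 2 of 6 and 4 of 28 at P5. The nuclear receptor gene Nr2f2 was above it in 2 of 8 and 3 of 14 at P2 and in 4 of 6 and 9 of 28 at P5. Of those 2 Foxp2-high cells at P2, 1 lay at 10.5 RPM of Foxp2, close to the threshold. Maf, a bZIP factor, was above 10 RPM in 4 of 8 and 4 of 14 at P2 and in 3 of 6 and 11 of 28 at P5. Npas3, a bHLH-PAS factor, was above 10 RPM in 1 of 8 and 4 of 14 at P2 and in 3 of 6 and 9 of 28 at P5. The intervals overlapped for each of these genes at both ages, and the order of the shares turned between the ages for Sp8, Sp9, Erbb4, Tshz1 and Npas3. The genes above 10 RPM per cell were similar on both sides, with medians of 1802 and 1834 at P2 and 2352 and 2210 at P5.

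**Figure D2:**
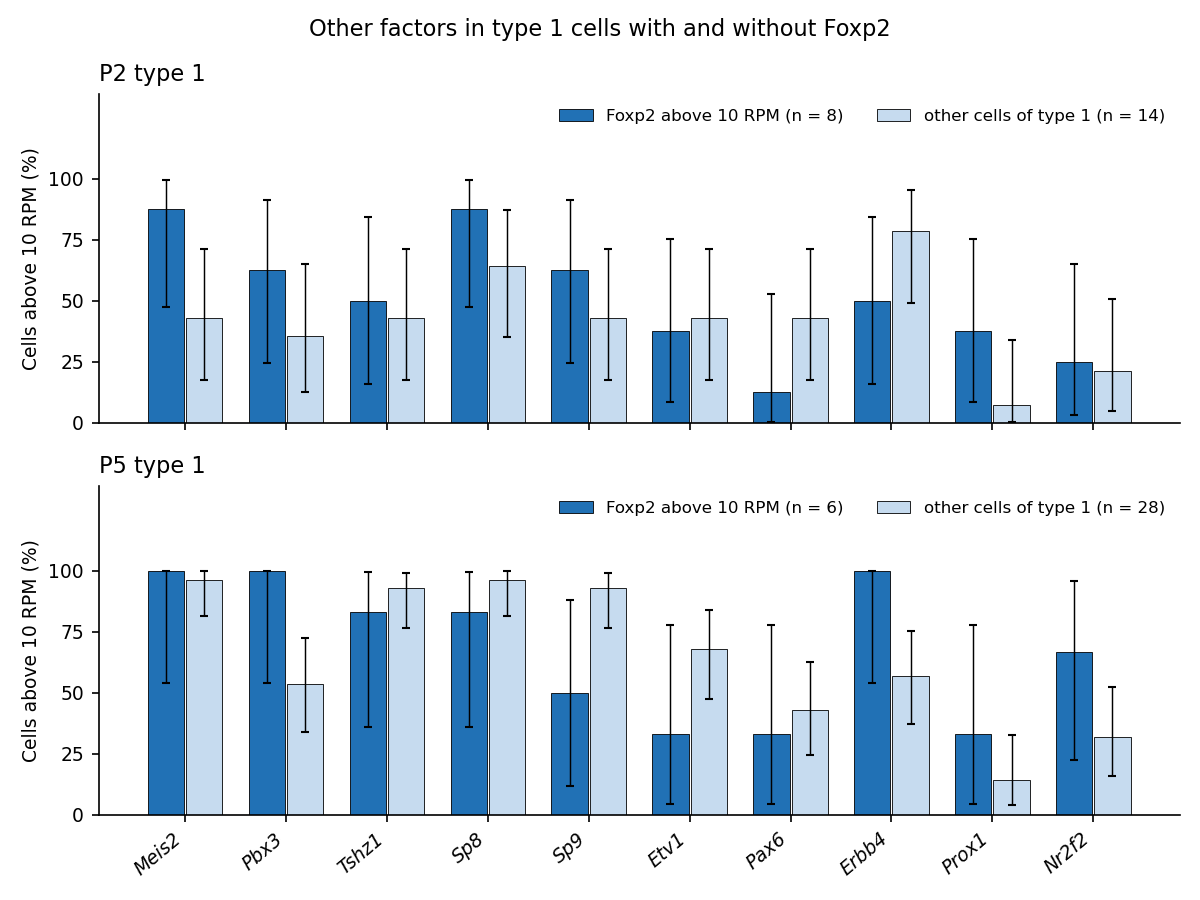
Share of cells above 10 RPM (%) for 10 factors in type 1 INs with Foxp2 above 10 RPM (dark, n = 8 at P2 and 6 at P5) and in the other type 1 INs (light, n = 14 and 28), with exact 95% binomial intervals. Meis2, Pbx3, Prox1 and Nr2f2 are at a higher share in the Foxp2-high cells at both ages, Etv1 and Pax6 are at a lower share, and the intervals of each pair overlap. Of the 2 Foxp2-high cells with Nr2f2 at P2, 1 lies at 10.5 RPM of Foxp2, close to the threshold.

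Foxp1, which in the striatum is expressed together with Foxp2, was above 10 RPM in some cells of all 7 groups. The pooled level was 70.3 RPM at E18 (69.7 to 70.9). At P2 it was 21.4 RPM in type 1 (20.8 to 22), 54.4 RPM in type 2 (53.6 to 55.2) and 3.31 RPM in type 3 (2.93 to 3.73). At P5 it was 37.3 RPM in type 1 (36.7 to 38), 72.8 RPM in type 2 (71.6 to 74) and 62.9 RPM in type 3 (61.7 to 64.1). Per kilobase of exon, which allows for the length of the genes, the E18 cells held 5.11 RPM of Foxp1 and 0.595 RPM of Foxp2, while type 1 INs at P2 held 1.55 RPM of Foxp1 and 14.4 RPM of Foxp2.

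The share of cells above 10 RPM of Foxp1 was 30.5% at E18 (25 of 82, 20.8 to 41.6%), 9.09% in type 1 at P2 (2 of 22, 1.12 to 29.2%), 32.3% in type 2 at P2 (10 of 31, 16.7 to 51.4%) and 15.4% in type 3 at P2 (2 of 13, 1.92 to 45.4%). At P5 it was 20.6% in type 1 (7 of 34, 8.70 to 37.9%), 31.6% in type 2 (6 of 19, 12.6 to 56.6%) and 45.5% in type 3 (10 of 22, 24.4 to 67.8%). The lowest and the highest share had overlapping intervals. The lowest Foxp1 level above the threshold was 11.3 RPM (a type 2 cell at P2) and the highest below it 9.17 RPM (a type 1 cell at P5).

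**Figure D3:**
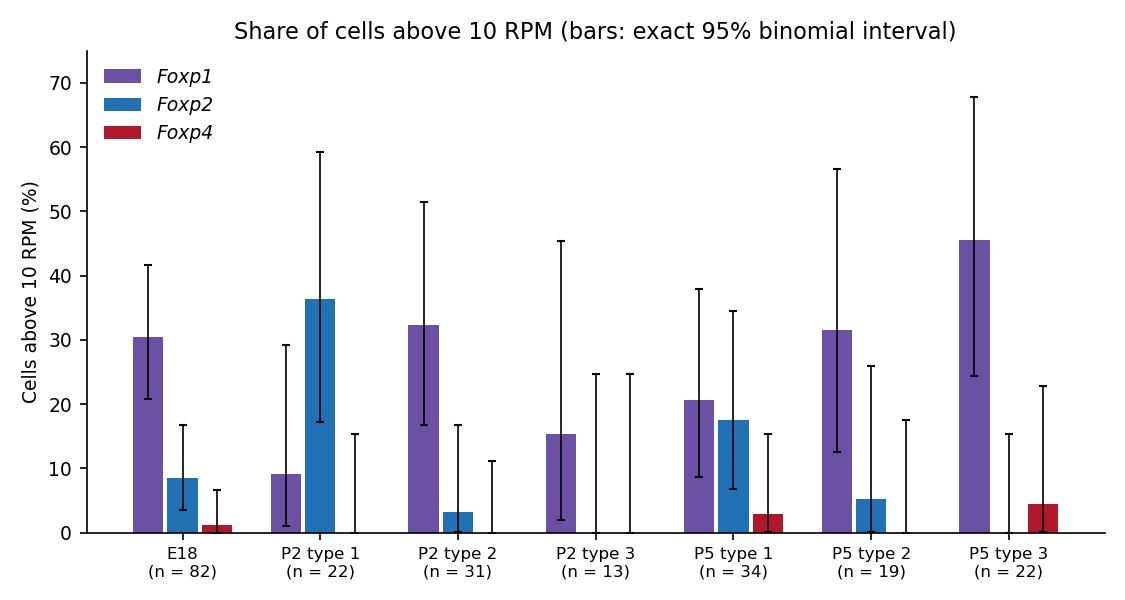
Share of cells above 10 RPM (%) of Foxp1, Foxp2 and Foxp4 in the 7 groups (n under each), with exact 95% binomial intervals. Foxp1 ranges from 9.09 to 45.5% with overlapping intervals, Foxp2 is at 36.4% and 17.6% in type 1 INs and at or below 8.54% elsewhere, and Foxp4 is at or below 4.55% in every group.

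Single cells set much of the Foxp1 level. In type 1 at P2, 1 cell at 464.0 RPM held 95.5% of the Foxp1 read pairs, and the pooled level without it was 1.02 RPM. In type 2 at P5, 1 cell at 1103 RPM held 66%, and the level without it was 25.9 RPM. At E18 the highest cells lay at 1049, 817.7 and 439.9 RPM, and the level without the highest was 55.5 RPM. In type 2 at P2 the levels with and without the highest cell (706.2 RPM) were 54.4 and 37.5 RPM, and in type 3 at P5, where the highest lay at 370.1 RPM, they were 62.9 and 49.6 RPM. Type 1 at P5, with its highest cells at 383.8, 307.5 and 234.9 RPM, held 37.3 and 29.5 RPM.

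Transcripts of other cell types moved with Foxp1 in the E18 cells and in type 2 at P5. At E18, 8 of 25 Foxp1-high cells and 4 of the other 57 had at least 3 of 11 excitatory genes above 10 RPM, with summed levels from 0 to 1861 RPM (median 6.61) and from 0 to 1947 RPM (median 0.817). Without these cells 17 of 70 were above 10 RPM of Foxp1 (24.3%, 14.8 to 36%) and the pooled level was 56 RPM. In type 2 at P5, 3 of the 6 Foxp1-high cells, the highest among them, and 2 of the other 13 carried 3 or more genes of the excitatory, astrocyte or oligodendrocyte lists. Without them 3 of 14 cells (21.4%, 4.66 to 50.8%) were above 10 RPM and the pooled level was 16.8 RPM, below that of type 1 at this age, and Foxp2 was above 10 RPM in 1 of 14 at a pooled level of 2.75 RPM. The part of these transcripts in the Foxp1 level was not tested. Cells with MGE transcripts stayed in these counts. Among the Foxp1-high cells, Lhx6 of the MGE list ranged up to 963.1 RPM at E18 and 1003 RPM in type 2 at P2. The part of MGE transcripts was not tested.

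Set against the remaining types of the same age, the log2 fold of Foxp1 was -0.99 in type 1, 1.67 in type 2 and -3.27 in type 3 at P2. It was -0.85, 0.65 and 0.33 at P5. In the comparison of type 2 at P2, 28.1% of the 8400 genes were past 2-fold higher, as Foxp1 was, and 19.9% lower, as Foxp2 was (-5.93). In that of type 3 at P2, 69.4% were past 2-fold, 53.4% lower and 16.0% higher, with a median log2 fold of -1.26. Both members tested were past 2-fold lower (Foxp2 at -5.23), and 26.4% of the genes had a lower fold than Foxp1. In the comparisons of types 2 and 3 at P5, 45.3% and 60.4% of the 9675 genes were past 2-fold. Of the members Foxp2 was, with log2 folds of -4.52 and -5.08. For type 3 at P5, 45.7% of the genes were lower and 14.7% higher, with a median of -0.78. The Foxp1 fold of type 3 at P2 was -3.67 without the highest type 3 cell and -2.87 without the highest other cell. For type 2 at P2 it was 1.14 and 4.38. That of type 1 at P2 was -4.46 without its highest cell and -0.47 without the highest other cell, and that of type 2 at P5 turned to -0.80 without its highest cell. In type 1 at P5 it was -2.40, -1.58 and -0.08 within label sets 383, 392 and 393. Without the 5 type 2 cells that carry transcripts of other cell types, the Foxp1 folds at P5 were -0.18 in type 1, -1.39 in type 2 and 0.97 in type 3, so type 2 turned to the lower side, past 2-fold. Those of Foxp2 in types 2 and 3 were then -4.31 and -5.21.

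**Figure D4:**
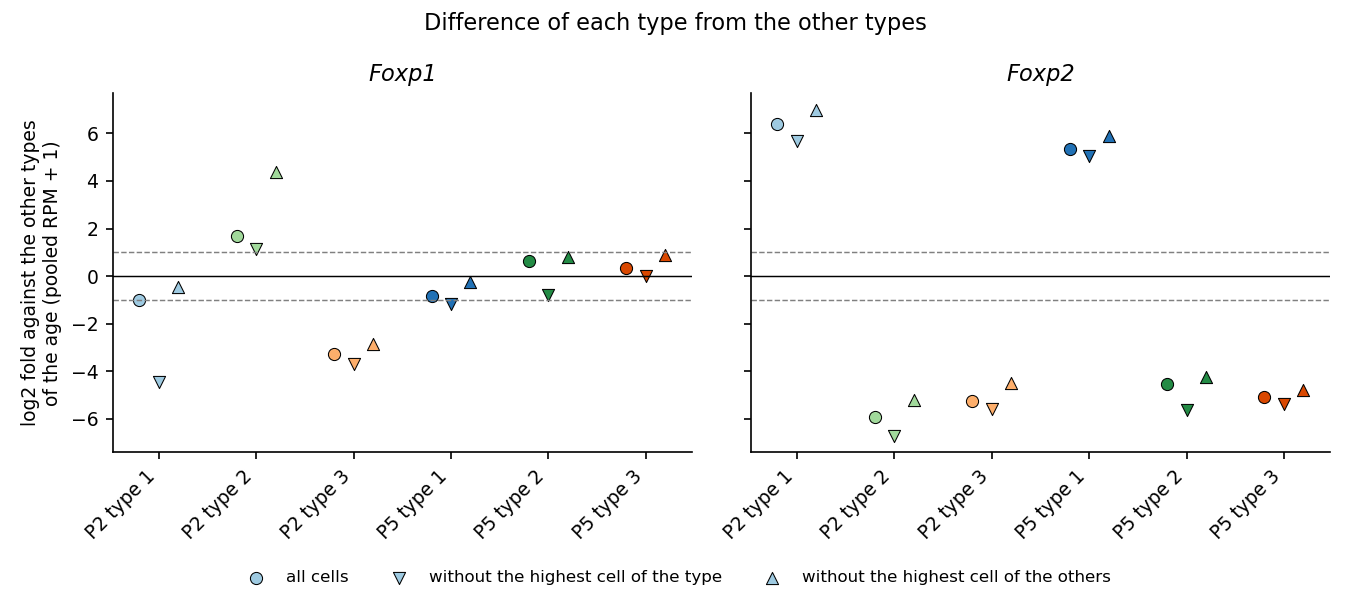
Log2 fold of pooled RPM + 1 in each type against the rest of that age for Foxp1 and Foxp2, with all cells (circle), without the highest cell of the type (triangle down) and without the highest of the rest (triangle up), and dashed lines at 2-fold. Foxp2 stays above 5 in type 1 INs and below -4 in types 2 and 3 in each setting, whereas Foxp1 in type 1 at P2 lies anywhere from -4.46 to -0.47.

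Between P2 and P5, Foxp1 was higher in type 3 INs at P5, with a log2 fold of 3.89 and of 3.55 and 4.29 without the highest cell of P5 and of P2. In this comparison 39.4% of 9948 genes were past 2-fold higher, and Foxp1 was the 1 member tested. Type 3 cells at P2 were the shallowest group and had a median of 1437 genes above 10 RPM against 2102 at P5, and the part of depth and of the label set in this fold was not tested. The shares of cells above 10 RPM, 15.4% and 45.5%, had overlapping intervals. In type 1 the fold between the ages was 0.78, or 4.25 without the highest P2 cell. In type 2 it was 0.41, or -1.04 without the highest P5 cell, and in this comparison 53.8% of 12457 genes were past 2-fold and 0 of the 2 members tested were. Without the 5 P5 cells that carry transcripts of other cell types, the type 2 fold of Foxp1 between the ages was -1.64, past 2-fold lower, and that of Foxp2 went from 0.19 to 0.41.

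The cells with Foxp1 and those with Foxp2 were compared. At least 1 member was above 10 RPM in 82 cells (36.8% of all), and 2 members in 6 cells. Foxp1 and Foxp2 were both above 10 RPM in 4 cells. One was an E18 cell at 135.5 RPM of Foxp1 and 24.5 RPM of Foxp2, one of the cells with excitatory transcripts. A pair of them were type 1 cells at P2, at 464.0 RPM of Foxp1 and 363.0 RPM of Foxp2 and at 16.8 and 114.4 RPM. The last was a type 2 cell at P2, at 359.1 and 30.8 RPM. Of the Foxp2-high cells at P2, 3 of 9 also had Foxp1 above 10 RPM, as did 11 of the other 57 (33.3% and 19.3%), and within type 1 these counts were 2 of 8 and 0 of 14. At E18 they were 1 of 7 and 24 of 75. At P5 they were 0 of 7 and 23 of 68, the latter 33.8%. The 34 type 1 INs of P5 thus held 7 cells with Foxp1, 6 others with Foxp2 and 21 with no member above 10 RPM. In those 6 cells the highest Foxp1 level was 0.122 RPM.

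**Figure D5:**
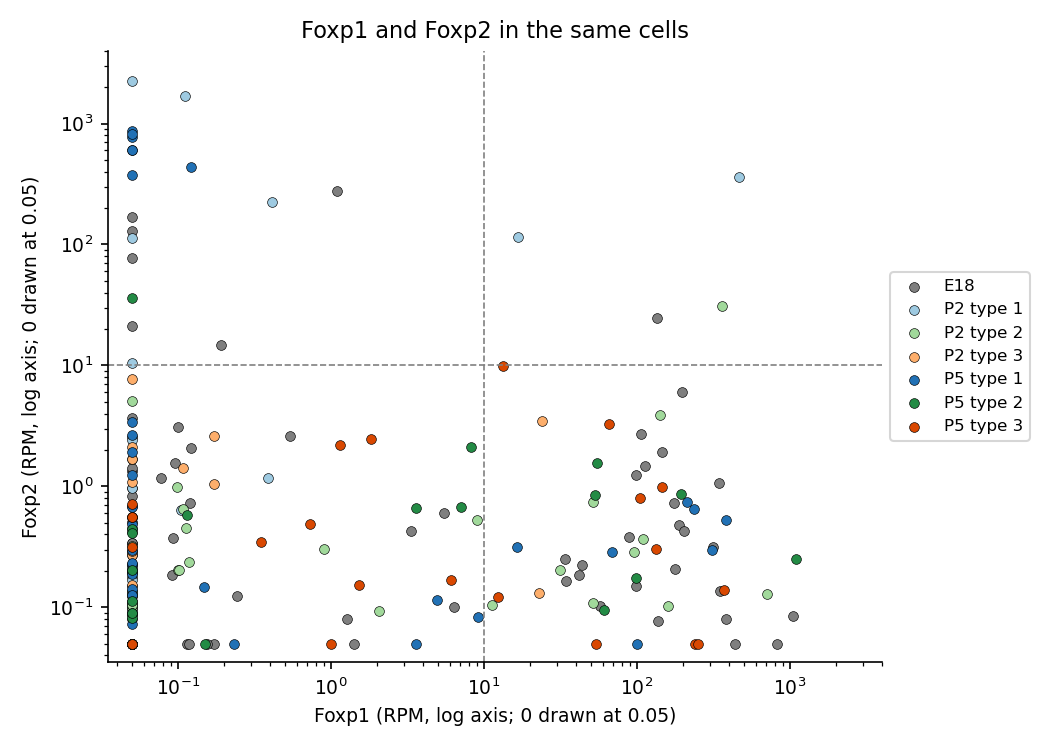
RPM of Foxp1 (x axis) and Foxp2 (y axis) in each cell, both on log axes with cells at 0 drawn at the lower edges, coloured by age and type, with dashed lines at 10 RPM. The 4 cells in the upper right are above 10 RPM of both, and the 7 Foxp2-high cells of P5 lie at or below 0.122 RPM of Foxp1.

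Factors of the types were also counted in the Foxp1-high cells. The 7 of type 1 at P5 had Meis2 above 10 RPM in 7 of 7, Tshz1, a zinc finger factor of the dorsal LGE, in 6 of 7 and Etv1 in 7 of 7, against 26, 25 and 14 of the other 27. The 10 of type 3 at P5 had Meis2 in 1 of 10, Prox1 in 9 of 10 and Nr2f2 in 9 of 10, against 0, 7 and 10 of the other 12. In type 2 at P2, Erbb4 was above 10 RPM in 10 of 10 Foxp1-high cells and in 15 of the other 21. The intervals of each of these pairs overlapped. At E18, Tshz1 was above 10 RPM in 4 of 25 Foxp1-high cells (16.0%, 4.54 to 36.1%) and in 26 of the other 57 (45.6%, 32.4 to 59.3%), with intervals that overlap, and without the cells that carry transcripts of other cell types in 3 of 17 and 24 of 53. The median number of genes above 10 RPM was larger in the Foxp1-high than in the other cells at E18 (2766 and 2424), in type 2 at P2 (2548 and 2266) and in type 2 at P5 (3110 and 2707), smaller in type 1 at P5 (2121 and 2292) and close in type 3 at P5 (2114 and 2096). Its part in these shares was not tested.

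Foxp4 was at the edge of detection. Its pooled level was 1.83 RPM at E18, 1.75 RPM in type 1 and 1.20 RPM in type 3 at P5, and it passed 10 RPM in 3 cells, at 100.6, 57.8 and 28.9 RPM, 1 in each of these groups. The highest cell below 10 RPM lay at 7.70 RPM. Without the highest cell the levels were 0.247, 0.240 and 0 RPM. At P2 there were 2 read pairs in type 1, 0 in type 2 and 1 in type 3, which is under the limit of 3 counts in each (0.0136, 0.00984 and 0.0360 RPM), and type 2 at P5 held none (limit 0.0163 RPM). The log2 fold of type 1 at P5 was 0.80, and it was -0.35 without the type 1 cell at 57.8 RPM. That cell was also the highest for Foxp2 at P5, at 868.2 RPM, and the type 3 cell at 28.9 RPM was the highest for Foxp1 in its group, at 370.1 RPM. Foxp4 did not pass the filter of 5% of cells at either postnatal age, so it enters none of the counts of members past 2-fold.

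Foxp3 had read pairs in 1 cell only, a type 3 cell at P5 with 111.1 RPM. The gene shares 853 exon bases on the same strand with the non-coding gene Flicr, and how reads in that stretch were divided is not stated. In that cell the T cell gene Cd3e was at 0, as in all cells, as was Ptprc, the gene of the leukocyte antigen CD45, which was above 10 RPM in 1 other cell. Il2ra, the gene of an interleukin receptor chain of regulatory T cells, was at 0.743 RPM there and at or below 7.16 RPM in every cell. Foxp1 shares 300 exon bases on its strand with the predicted gene Gm20696, which was above 10 RPM in 3 cells, and further bases with an annotated miRNA gene (Gm49348) that is not among the genes matched here. Neither Foxp2 nor Foxp4 shares exon bases with another annotated gene that had reads.

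The list of corepressors that Foxp proteins bind holds 16 genes of the NuRD and CtBP complexes. In type 1 INs at P2, 12 of the 16 passed the filter, 2 were past 2-fold higher and 1 lower, and their median log2 fold was 0.17, where the median of all 8400 genes was -0.25, with 19.4% of them past 2-fold higher and 31.9% lower. The 2 were Chd4, the ATPase of NuRD (2.26), and Mbd3 (1.31), and the gene past 2-fold lower was Gatad2b (-1.11), the NuRD subunit that Foxp proteins are known to bind. At P5 all 16 passed, 8 were past 2-fold higher and 1 lower, with a median of 0.99 where that of all 9675 genes was 0.04 and 23.6% of them were past 2-fold higher and 23.7% lower. Rbbp7, a histone chaperone, was at 140.9 RPM in type 1 and 8.02 RPM in the other types (3.98), but at 66.6 and 124.4 RPM at P2 (-0.89). Its relative Rbbp4 was at 206.9 and 48.2 RPM at P5 (2.08), where at P2 the log2 fold was 0.19, and the deacetylase gene Hdac2 at 226.0 and 88.9 RPM (1.34), with 0.14 at P2. The gene past 2-fold lower at P5 was Chd5, a neuronal ATPase of NuRD, at 14.9 and 42.7 RPM (-1.46). At P5 Ctbp1 was at 46.1 and 30.9 RPM (0.56) and Gatad2b at 73.5 and 41.4 RPM (0.81). Without the 5 type 2 cells that carry transcripts of other cell types, 9 of the 16 were past 2-fold higher at P5, Mbd3 (1.69) with them, and 1 lower, with a median of 1.10 where that of all genes was 0.13 and 27.1% of them were past 2-fold higher and 22.6% lower. Rbbp7 was then at 3.83. Within type 1 INs the summed level of the list overlapped between Foxp2-high and other cells, from 247.3 to 1888 RPM (median 528.9) and from 40.8 to 1027 RPM (median 345.7) at P2, and from 330.2 to 1997 RPM (median 947.3) and from 211.1 to 3957 RPM (median 1019) at P5.

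Of 7 genes reported elsewhere as Foxp2 targets, 3 passed the filter at P2 and 4 at P5. Mef2c, which codes for a transcription factor that limits synapse number and that Foxp2 represses in the striatum, was at 51.2 RPM in type 1 and 582.7 RPM in the other types at P2 (log2 fold -3.48) and at 92.2 and 330.3 RPM at P5 (-1.83). Cntnap2, a neurexin relative, was at 0.330 and 65.9 RPM at P2 (-5.65) and at 3.66 and 30.2 RPM at P5 (-2.74). The reelin receptor gene Vldlr was at 85.9 and 100.6 RPM at P2 (-0.23) and at 12.6 and 150.7 RPM at P5 (-3.48). Past 2-fold lower were 2 of the 3 at P2, where 31.9% of all genes were, and 3 of the 4 at P5, where 23.7% were. Without the 5 type 2 cells that carry transcripts of other cell types, 3 of the 4 were past 2-fold lower at P5, with Mef2c at -2.02, Cntnap2 at -2.41 and Vldlr at -3.67. Over all 7 genes measured, in all cells, the median log2 fold was -0.23 at P2, where that of all genes was -0.25, and -1.83 at P5, where it was 0.04. Plaur, the gene of the urokinase receptor, did not pass the filter: at P2 it was above 10 RPM in 1 type 1 cell (pooled 15.9 RPM) and at 0 in the other types, and it was at 0 in all P5 cells. Srpx2 was at 0 in every cell. Inside type 1 the summed level of the list overlapped between Foxp2-high and other cells, from 1.01 to 446.9 RPM (median 73.3) and from 0.308 to 941.2 RPM (median 16.1) at P2 and from 0.439 to 212.1 RPM (median 27.8) and from 0.144 to 1169 RPM (median 18) at P5.

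Foxp1 and Foxp2 mark projection neurons of the striatum, and markers of those cells were looked for. No cell of any group had 3 of 13 striatal genes above 10 RPM. The dopamine receptor gene Drd2, Isl1 and Ppp1r1b, the gene of DARPP-32, were at 0 in every group, and Drd1 was above 10 RPM in 4 E18 cells and 1 type 2 cell at P2. Bcl11b was the 1 gene of the list that passed the filter at P5, at 40.8 RPM in type 1 (log2 fold -0.77 against the other types). At P2, 2 of the 13 passed it, and 1 was past 2-fold lower in type 1, where 31.9% of all genes were. The summed level of the list ranged from 0.0821 to 275.5 RPM in the Foxp2-high type 1 cells at P2 (median 0.364) and from 0 to 250.4 RPM at P5 (median 2.50), and from 0 to 481.0 RPM (median 0.410) and 0 to 236.6 RPM (median 2.23) in the other type 1 cells. At least 3 of 10 factors of the dorsal LGE and olfactory bulb were above 10 RPM in 6 of 8 Foxp2-high type 1 cells and 14 of the other 14 at P2, and in 6 of 6 and 28 of 28 at P5. The same held for 21 of 31 type 2 and 3 of 13 type 3 cells at P2, for 17 of 19 and 15 of 22 at P5, and for 43 of the 82 E18 cells. Without the cells that carry transcripts of other cell types these were 12 of 14 in type 2 at P5 and 36 of 70 at E18. Against the other types, 7 of the 9 genes of this list that passed the filter were past 2-fold higher in type 1 INs at either age (median log2 folds 2.23 and 2.12), and 4 of 4 CGE factors were past 2-fold lower (-2.49 and -2.70). Of all genes, 19.4% at P2 and 23.6% at P5 were past 2-fold higher and 31.9% and 23.7% lower. Without the 5 type 2 cells, 8 of the 9 were past 2-fold higher at P5 (median 2.43) and 4 of 4 CGE factors lower (-2.72).

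Of 40 other Fox genes in the table, 22 were above 10 RPM in no cell. Genes above it in at least 25% of the cells of some group included Foxj3, Foxk2, Foxn2, Foxn3 and Foxo3. Foxn3 passed it in 94.7% of the P5 type 2 INs, with pooled levels of 659.6 RPM at E18 and 55.8 RPM in type 3 at P5, and Foxo3 in 68.4% of the same cells. Foxp1 with 62 cells came behind Foxj3 (76 cells) and ahead of Foxn2 (59 cells) and Foxk2 (40 cells), and Foxp2 was above 10 RPM in 23 cells.

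The genes whose levels over the 75 P5 cells were most like those of each member were ranked by Pearson's r of log2(RPM + 1) among 6877 genes. For Foxp2 they were Pip4p1 (r = 0.46), Csrnp3 (0.46), Rimkla (0.45), Psmd8 (0.42) and Kmt2b (0.41), and over the 66 P2 cells their r lay between -0.11 and 0.06. For Foxp1 they were Cmas (0.46), Rad54l2 (0.45), Rae1 (0.44), Rbm27 (0.42) and Gaa (0.41), with r between -0.11 and 0.15 at P2. For Foxp4 the ranking rests on 2 cells above 10 RPM and names Rnf217, Tenm4, Golph3, Tgfbrap1 and Rnf2. None of the genes named at P5 was as like its member at P2, and Spearman's rho, which weighs the trace reads, kept 1 of the 5 for Foxp1 (Cmas), 1 for Foxp4 (Tenm4) and 0 for Foxp2. Across the 7 pooled groups, among 6770 genes, Elovl2 was most like Foxp2 (r = 0.970), followed by Uspl1, Ubap2l, Actl6b and Cacna1c. For Foxp1 the most alike were Gde1 (r = 0.996), Ncald, Casd1, Cabin1 and Bcas3, and for Foxp4 Dnajb12 (0.975), Morc2a, Gm26562, Rbsn and Gm26601. These values are descriptions over 7 points or over cells that share chips and depth.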

How the data were processed

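Read pairs (50 bases, HiSeq2000) of single cells captured on C1 chips, amplified with SMARTer and tagged with Nextera XT were mapped by the authors to GRCm38 with TopHat2 and counted per Ensembl gene with HTSeq 0.6.1. The deposited values are raw counts of 43629 genes in 82 cells of E18, 66 of P2 and 75 of P5 that had passed the authors' quality filter. Whether the counting used strand is not stated, and there are no molecular identifiers. RPM was the count times the coefficient in the labels. Ages and types were taken from the labels, and all columns were used (0 left out). Gene names (42462 matched), positions and transcript sequences came from GENCODE vM21, a later release than the Ensembl annotation the authors used.

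Pooled RPM was the summed counts over the summed mapped pairs, with exact 95% Poisson intervals, and shares had exact Clopper-Pearson intervals. A count of 0 allows up to 3. Log2 folds had 1 RPM added to both sides. Folds were counted over genes with a level above 10 RPM in over 5% of that age's cells (or of either side, between ages). With 1 pool of animals per age no test was made and no p-value is given. The functions were tested on simulated data.

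The members and the gene lists were chosen with earlier results of these data known. Named were the Foxp genes, genes of the lists, other Fox genes with 25% or more of a group's cells above 10 RPM, and for each member the 5 genes of highest Pearson correlation over P5 cells and over the groups, among genes with over 10% of cells above 10 RPM. Some items that this rule names are not reported here. Alternatives were the scaling (total counts, edgeR 4.0.16 TMM, DESeq2 1.42.0 size factors), the pseudocount, the threshold, the filter, the mean per cell, single cells, label sets, and thinning to equal mapped pairs. R 4.3.3 and Python 3.11.15 were used, with scipy 1.17.1, numpy 2.4.6, matplotlib 3.10.9 and pandas 2.3.3.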

Additional observations from a re-analysis of the deposited data

Results flagged for a closer look

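Foxp1 in type 3 INs lay on opposite sides of the other types at the 2 postnatal ages, with a log2 fold of -3.27 at P2 and of 0.33 at P5. The median log2 fold of the genes that passed the filter was -1.26 in type 3 at P2 and -0.78 at P5. The difference between the ages was not tested. At P5 the Foxp1 fold was -0.00 without the highest type 3 cell, and at P2 it was -3.67. Without the 5 type 2 cells that carry transcripts of other cell types it was 0.97 at P5. Type 3 cells at P2 had a median of 6483871 mapped pairs against 7879973 at P5, all P2 cells carry the set number 353, and the part of either in the difference was not tested.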

How the results depend on the processing

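The direction of each type 1 fold was the same under every alternative, except for Foxp4 at P5. For Foxp2 at P2 (6.40) the fold was 6.49 per total counts, 6.59 with TMM, 6.63 with DESeq2 size factors, 6.96 and 4.38 with 0.1 and 10 RPM added, 6.56 from the mean RPM per cell, 2.46 from the mean log2 value, and 5.69 and 6.99 without the highest cell of type 1 and of the other types. At P5 (5.35) it was 5.20 per total counts, 5.91 and 3.35 with 0.1 and 10 RPM added, 1.30 from the mean log2 value, 5.05 and 5.91 without the highest cell of type 1 and of the others, and 5.84, 6.02 and 5.77 within label sets 383, 392 and 393. For Foxp1 at P2 (-0.99) it was -0.86 with TMM, -0.84 with DESeq2 size factors, -0.77 with 10 RPM added, -0.85 from the mean RPM, -1.22 from the mean log2 value, and -4.46 and -0.47 without the highest cells. At P5 (-0.85) it was -1.06 per total counts, -0.94 with TMM, -0.97 with DESeq2 size factors, -0.72 with 10 RPM added, -1.33 from the mean log2 value, -1.18 and -0.24 without the highest cells, and -2.40, -1.58 and -0.08 within the sets. For Foxp4 at P5 (0.80) it was 1.44 and 0.15 with 0.1 and 10 RPM added, 0.15 from the mean log2 value, -0.35 and 1.46 without the highest cells, and 2.52, 0.00 and -0.11 within the sets. At P2, where both sides are at or under the limit of 3 read pairs, the value for Foxp4 was 0.01, or 0.09 with 0.1 RPM added, and is no fold. With a threshold of 1 read pair the shares of type 1 INs were 90.9% at P2 and 85.3% at P5 for Foxp2 and 38.2% at P5 for Foxp1. The share with Foxp4 at P5 was 0% within sets 392 and 393. Thresholds from 1 to 50 RPM gave Foxp2 shares in type 1 of 31.8 to 45.5% at P2 and 17.6 to 29.4% at P5 (at 1 RPM, type 3 at P2 held 61.5%), and thinning to 3707601 mapped pairs left 36.4% and 17.6%. The genes past 2-fold in type 1 numbered 4309 at P2 and 4577 at P5, 8087 and 7481 with no filter beyond 1 read pair, and 772 and 1040 among genes in at least 25% of the cells. Leaving out cells with transcripts of other cell types, an alternative chosen after seeing the data, gave type 1 folds at P5 of -0.18 for Foxp1, 5.27 for Foxp2 and 0.72 for Foxp4. No paired analysis was possible because each age is 1 pool and the replicate numbers only name cells and pair none. The set numbers shared by the P5 types gave the folds within sets. The cause of each shift was not tested, and the number of cells per group limits the shares.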
